A study of Mus musculus with 36 samples.

Results

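DNA methylation was examined here at 10 genes of the Notch pathway in B3 cells, a mouse pre-B cell line, by reduced representation bisulfite sequencing, which reads cytosine methylation in CpG-rich fragments cut by a restriction enzyme. A CpG cluster is a run of listed CpG positions at most 100 bp apart. A cluster was assigned to Notch1, Notch2, Notch3, Notch4, Dll1, Jag1, Jag2, Hes1, Hey1 or Dtx1 where it overlapped the gene body or the 5 kb on either side (GENCODE M21, GRCm38). This gave 34 of the 18009 clusters of the series, with 2029 listed positions, of which 1699 had a value in every sample. Of the 34 clusters, 33 could be tested, since the cluster in exon 26 of Jag2 had no position with a value in every sample. By place, 22 clusters lay within 1000 bp of an annotated transcript start of the gene, 8 elsewhere in a gene body and 4 in the flanks.

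Cells were transduced with a retroviral vector that carried GFP and either a fusion of the transcription factor Ikaros to the tamoxifen-responsive domain ERt2 (Ikaros series) or the ERt2 vector without Ikaros (Control series), and were sorted for GFP. Both series were sampled at 0, 2, 6, 12, 18 and 24 h with 3 replicates, 18 samples each, and 0.5 µM 4-hydroxytamoxifen, which moves the fusion protein into the nucleus, was given to both. The labels list this dose at every time point, whereas the study's methods describe the 0 h cells as collected without the drug. All samples came from 1 cell line and 2 transduced populations, so that an effect of Ikaros and any other difference between the 2 populations cannot be told apart in a comparison of the series.

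Notch receptors are membrane proteins that are cleaved when a ligand on a neighbouring cell, of the Delta-like or Jagged kind, binds them. The released intracellular part enters the nucleus and, with the DNA-binding protein RBPJ, switches on targets such as the repressors Hes1 and Hey1 and the ubiquitin ligase Dtx1. Notch signals direct lymphoid progenitors to the T lineage, and Ikaros binds and represses Notch targets in lymphocytes, at sites whose core letters overlap those of RBPJ.

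The results turn on the sequences below, which are given on the sense strand of the gene with the CpGs listed in the data in capitals. The first is the stretch of Jag2 exon 2 and intron 1 in which positions were called both with and without library covariates, chr12:112929107-112929312 (minus strand, 30 listed CpGs). The next pair are the Notch3 clusters called between the series, chr17:32166868-32166936 just upstream of the gene start and chr17:32141304-32141425 in a coding exon (minus strand, 10 listed CpGs each). The last pair show a start free of methylation and one that was methylated: Notch2, chr3:98013288-98013526 (plus strand, 29 listed CpGs), and Jag1, chr2:137116645-137116770 (minus strand, 6 listed CpGs), both ending at the first base before the gene. The Notch2 and Jag1 sequences lie within the promoter windows of RefSeq (GRCm38.p6), which matched the genome.
Jag2 exon 2 and intron 1: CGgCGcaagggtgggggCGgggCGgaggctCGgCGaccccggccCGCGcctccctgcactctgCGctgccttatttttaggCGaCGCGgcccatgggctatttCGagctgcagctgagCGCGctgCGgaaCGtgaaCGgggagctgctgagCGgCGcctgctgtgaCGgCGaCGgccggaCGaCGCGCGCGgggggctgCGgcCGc
Notch3 start: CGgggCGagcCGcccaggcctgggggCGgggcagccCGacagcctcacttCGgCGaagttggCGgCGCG
Notch3 exon 25: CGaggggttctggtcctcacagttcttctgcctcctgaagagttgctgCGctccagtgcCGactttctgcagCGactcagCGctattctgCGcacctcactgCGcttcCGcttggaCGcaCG
Notch2 upstream: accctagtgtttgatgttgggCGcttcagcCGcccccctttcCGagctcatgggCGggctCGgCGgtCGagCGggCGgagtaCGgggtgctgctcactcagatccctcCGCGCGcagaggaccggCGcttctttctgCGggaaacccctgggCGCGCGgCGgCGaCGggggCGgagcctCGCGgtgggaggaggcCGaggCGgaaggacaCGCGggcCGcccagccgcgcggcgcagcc
Jag1 upstream: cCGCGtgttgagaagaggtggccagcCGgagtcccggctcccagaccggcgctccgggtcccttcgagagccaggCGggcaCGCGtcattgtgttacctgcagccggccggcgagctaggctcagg
The letters TGGGAA, the core of the RBPJ site, were searched on both strands. They stood in none of these 5 sequences and in 0 of the 9 RefSeq promoter windows of 300 bases found for 8 of the 10 genes, against 25.6% of the 32851 promoter windows of the genome. The core of Ikaros sites alone was not searched. These counts describe the windows and say nothing of binding.

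The values are methylation levels that the study's authors smoothed along each cluster, so that neighbouring positions share reads and are not independent, and the read depth behind each level is unknown. A level between the extremes can mean a mixture of methylated and free cells or partial methylation in every cell, which cannot be told apart in bulk DNA. Of the lineage genes examined, 3 B lineage promoters (Pax5, Ebf1 and Vpreb1) had mean levels of 0.205% to 0.982%, 3 T lineage promoters (Lck, Bcl11b and Tcf7) 46.9% to 98.2%, and the 3 clusters of the myeloid gene Cebpa 97.8% to 98.2%. The erythroid gene Klf1 was at 1.47%. Of the 25 lineage genes listed, the other 17 had no promoter cluster with complete values.

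Some libraries stood apart. The Control 0 h replicate 1 library had 11.64% empty positions, and the Ikaros 24 h replicate 2 library had 59.13% of its values at exactly 0 or 1. Over the 810 clusters that differed between the series, the library labelled Control 24 h replicate 2 lay nearer the Control mean in only 43.1%, against 73.1% to 87% nearer their own series for the other libraries. Values at exactly 0 or 1 were also counted, at 36.2% ± 7.63 (SD, n = 18) in the Ikaros series and 27.9% ± 4.89 (n = 18) in the Control series. Results are therefore given also without these 3 libraries and with the shares of empty and of exact values as covariates.

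Most clusters of these genes were either nearly free of methylation or almost fully methylated. Of the 33 clusters, 11 had a mean level under 10%, 19 were over 90% and 3 lay between, at the first intron of Notch3, the first exon of Dll1 and the start of Jag2. Over all 16734 clusters tested, 48.6% were under 10% and 40.2% over 90%. The unmethylated clusters belonged to Notch1, Notch2, Notch4 and Hes1, and the methylated ones to Notch3, Dll1, Jag1, Jag2, Hey1 and Dtx1, with Notch1 contributing 1 methylated cluster inside the gene. CpG density overlapped between the classes: the ratio of observed to expected CpGs had a median of 0.82 (0.54 to 1.03) in the 11 low clusters and of 0.796 (0.574 to 1.26) in the 19 high ones. The plot of levels by cluster shows both classes.

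**Figure D1:**
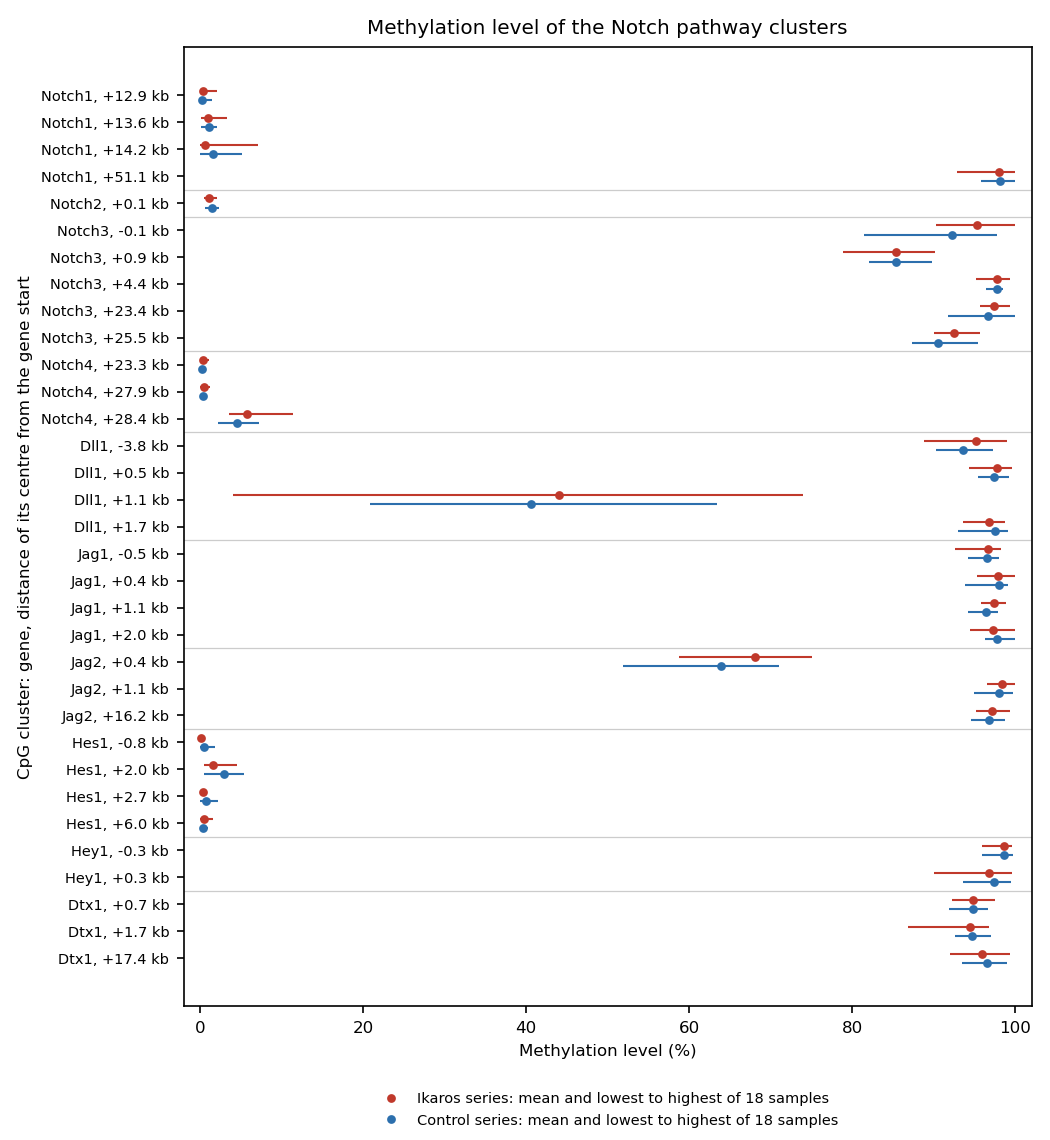
Methylation level (%, horizontal axis) of the 33 clusters (vertical axis, grouped by gene, with the distance of the cluster's centre from the gene start). Points are means and lines run from the lowest to the highest of 18 samples in the Ikaros series (red) and the Control series (blue). 11 clusters lie under 10%, 19 over 90%, and the series largely overlap.

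Among the receptors, the Notch1 transcript start at chr2:26503642-26503966, over the 5′ untranslated exon of the transcript Notch1-201, was at 0.356% ± 0.578 in the Ikaros series and 0.208% ± 0.366 in the Control series (SD, n = 18 each). The 2 clusters downstream in the following intron were at 0.634% to 1.55% in both series. By contrast, exon 28 of Notch1 (chr2:26465456-26465650) was at 98% ± 1.74 and 98.1% ± 1.13. Notch2 had a single cluster of 155 positions over its start, chr3:98013309-98013966, with 1.04% ± 0.436 in the Ikaros and 1.43% ± 0.456 in the Control series. Its difference missed the threshold (M-value difference -0.23 ± 0.086, SE; limma adjusted p = 0.14).

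Notch3 differed from Notch1 and Notch2 in that all 5 of its clusters were methylated, from 85.3% to 97.7% in either series. In the first intron, chr17:32165749-32166243, the mean level of a position ran from 55.5% to 98.1% within the cluster. Notch4 had no cluster at its gene start. Its cluster over the last exon, exon 30 (chr17:34587358-34587714), was at 0.351% ± 0.309 and 0.235% ± 0.21, and lies 317 bp from the annotated start of another transcript of the gene. The 2 clusters downstream of Notch4 also lie within 1000 bp of a start of Pbx2, a homeobox gene, and cannot be assigned to Notch4 from position alone.

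The ligand genes were methylated at most sites. Jag1 had 4 clusters between 96.4% and 98% in both series, including 96.6% ± 1.39 and 96.5% ± 1.03 upstream of its start (chr2:137116686-137117522). Within that upstream cluster the mean level of a position ran from 76.8% at 137116688, near the start, to 98.1%. Dll1 had 3 clusters between 93.6% and 97.8%, of which the one over the start of Dll1-202, chr17:15374806-15375491, was at 96.8% ± 1.51 in the Ikaros and 97.5% ± 1.35 in the Control series. The remaining Dll1 cluster, chr17:15375632-15375964 in the untranslated part of exon 1, was the most variable of the 33: the lowest, median and highest sample were 4.04%, 49.4% and 74% in the Ikaros series and 20.9%, 37.6% and 63.4% in the Control series. Its SD within groups was 17.3 percentage points, and only 2.59% of the 580 clusters with a mean level of 30% to 60% had a larger one (median 7.92). Only 24 of its 40 positions had complete values. The region also overlaps the transcript A930024N18Rik, and the series did not separate there (adjusted p = 0.986).

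Among the targets, all 4 Hes1 clusters were nearly free of methylation, at 0.155% to 2.94% in either series. The cluster upstream of the start, chr16:30062992-30064149, was at 0.155% ± 0.171 in the Ikaros and 0.484% ± 0.421 in the Control series. Hey1 and Dtx1 showed the opposite. The Hey1 clusters, upstream of and over exon 1, were at 96.8% to 98.6%, and the 3 Dtx1 clusters at 94.5% to 96.5%. Over its exon 1 Hey1 was at 96.8% ± 2.5 in the Ikaros and 97.3% ± 1.77 in the Control series (chr3:8666731-8667265). The Dtx1 cluster nearest its start, chr5:120710671-120711754, was at 94.8% ± 1.43 in the Ikaros and 94.8% ± 1.18 in the Control series. Hes1 thus lay at the opposite end of the scale from Hey1 and Dtx1.

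The series were compared with limma, fitted to the M-values averaged over each cluster (the M-value is the log2 of the methylated over the unmethylated fraction), with a Benjamini-Hochberg adjusted p under 0.05 over all 16734 clusters as the call. Of the 33 clusters, 4 were called, 3 higher and 1 lower in the Ikaros series. Over all clusters 810 were called, or 4.84% (3.71% higher and 1.13% lower). The median M-value difference was 0.0397 over the 33 clusters and 0.0344 over all. The 4 called clusters were the start of Jag2, the start and exon 25 of Notch3, and exon 3 of Hes1, and in each the samples of the series overlapped.

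**Figure D2:**
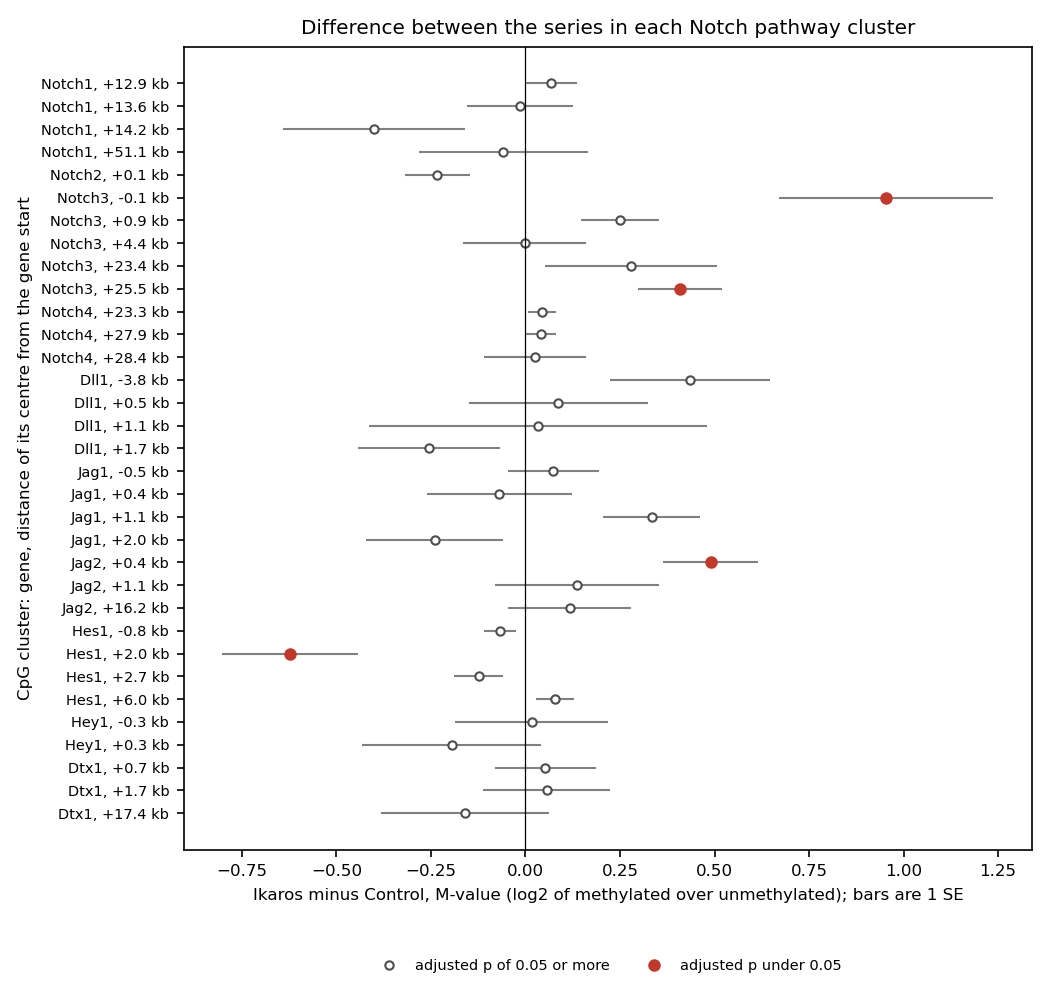
Difference between the Ikaros and Control series in M-value (horizontal axis; log2 of methylated over unmethylated, bars are 1 SE) for the 33 clusters (vertical axis, as in the plot of levels). The 4 called clusters, filled in red, lie at 0.95 and 0.41 for Notch3, 0.49 for Jag2 and -0.62 for Hes1.

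Jag2, which encodes a Jagged ligand, had the smallest p of the 33 clusters at its start, chr12:112928982-112929780, which spans exon 1, intron 1 and part of exon 2. The lowest, median and highest level were 58.8%, 69.7% and 75% in the 18 Ikaros samples and 51.9%, 64.7% and 71% in the 18 Control samples. The groups overlapped, with 7 Ikaros samples above the highest Control sample, and the lowest Control sample was the 0 h replicate 1 library. The mean was 68% ± 5.1 against 63.9% ± 4.6, an M-value difference of 0.49 ± 0.12 (SE, adjusted p = 0.0147). On the scale of levels the difference of 4.1 percentage points missed the threshold (adjusted p = 0.203). It also missed it for the M-value of the mean level, where the M-value difference was 0.27 (adjusted p = 0.205). The same held with empty values included (adjusted p = 0.102), for 2 h to 24 h only (0.067), without replicate 1 (0.378) and without replicate 3 (0.116). The other tested Jag2 clusters stayed between 96.7% and 98.3% in both series.

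The difference lay in one end of the cluster. In exon 2 (71 positions, chr12:112928982-112929232) the lowest, median and highest sample were 88.3%, 92% and 94.5% in the Ikaros series and 79.9%, 83.9% and 89.4% in the Control series. There, 17 of 18 Ikaros samples lay above every Control sample. In intron 1 (38 positions) the means were 77.3% ± 4.9 and 67.9% ± 5.93, with 11 Ikaros samples above every Control sample. In the untranslated part of exon 1 (91 positions) the means were 48.2% ± 10.2 and 49.2% ± 7.54, and in its coding part (14 positions) 49.5% ± 11.8 and 45% ± 11.9. No Ikaros sample lay above the highest Control sample in either part of exon 1. These parts follow the annotation but were looked at after the cluster had been called, so they are given as a description.

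A fit over the 895908 single positions with complete values was added after seeing the data. It called 22156 positions, or 2.47% (1.96% higher and 0.515% lower in the Ikaros series). At the 10 genes 129 of 1699 positions were called, 127 higher and 2 lower, in 8 clusters, and 89 of the 129 stood in the start of Jag2. These 89 were all the positions with complete values from 464 to 794 bp downstream of the gene start, 71 in exon 2 and 18 in intron 1, and none was called in exon 1. The smallest adjusted p was 3.99e-07, at position 112929175, with 90.1% ± 3.16 against 78.8% ± 4.7 (M-value difference 1.31 ± 0.14, SE). The split by direction at the 10 genes depended on the setting. On the scale of levels 115 positions were called higher and 23 lower (18231 and 5668 of all positions). Without replicate 1 these were 92 and 16 (8538 and 1727 of all positions). Since the levels were smoothed, the 89 positions are not separate measurements. They were also chosen for differing in these samples, so the following means are a description. Within replicate numbers, the mean over the 89 positions was 88.5%, 90.3% and 89.4% in the Ikaros series and 79.2%, 83% and 78.9% in the Control series for replicates 1, 2 and 3 (n = 6 time points each).

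**Figure D3:**
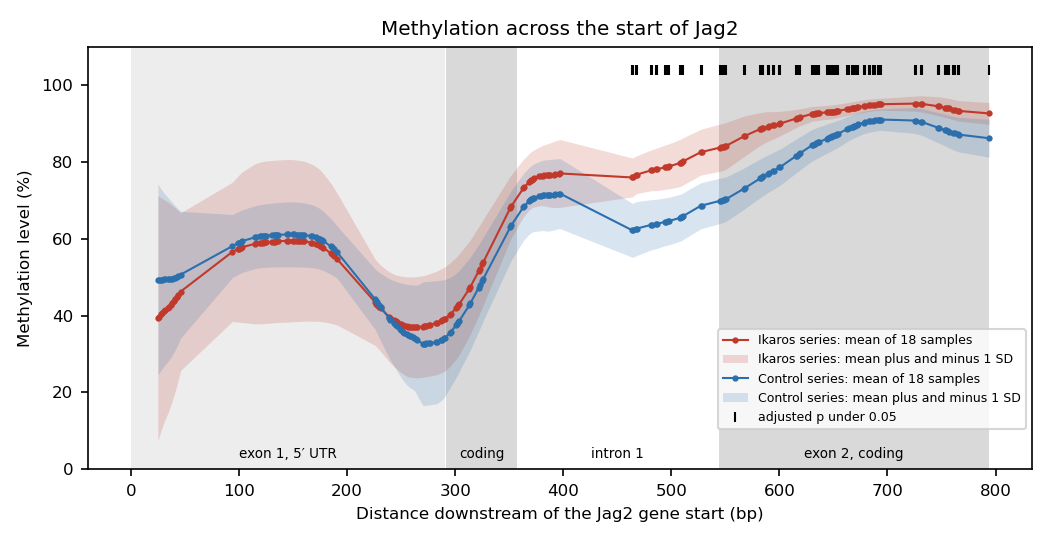
Methylation level (%, vertical axis) against the distance downstream of the Jag2 gene start (bp, horizontal axis) for the 214 positions with complete values. Lines are means and bands 1 SD of 18 samples for the Ikaros (red) and Control (blue) series, shading marks exons, and ticks on top mark the 89 positions with an adjusted p under 0.05, all between 464 and 794 bp.

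Part of the Jag2 stretch was called in the 0 h samples. In the contrast of the series at 0 h, which takes its spread from all 36 samples, 25 Jag2 positions between 112929139 and 112929227 were called (smallest adjusted p = 0.00988), where 0.0904% of all positions were. Over the 89 positions, which were chosen for a difference that these samples enter, the 3 samples at 0 h were at 90.8% ± 0.451 in the Ikaros series and 77.4% ± 4.05 in the Control series. With the 3 libraries that stood apart left out, 89 Jag2 positions were called (2.9% of all positions), which is no independent check, since 1 of the 3 was singled out by its values in called clusters. With the shares of empty and exact values as covariates 53 were (0.93% of all positions). At the level of clusters, 0 of the 33 passed with these covariates (335 of all clusters did), and the adjusted p of the 4 called ones was then 0.0779 to 0.25. Their M-value differences were 0.41 for Jag2, -0.79 for Hes1, 0.50 for Notch3 exon 25 and 1.16 for the Notch3 start in that fit, against 0.49, -0.62, 0.41 and 0.95 without the covariates. The part of these measures in the cluster differences was not tested beyond this fit. Leaving out replicate 3 left 56 Jag2 positions called (0.961% of all).

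**Figure D4:**
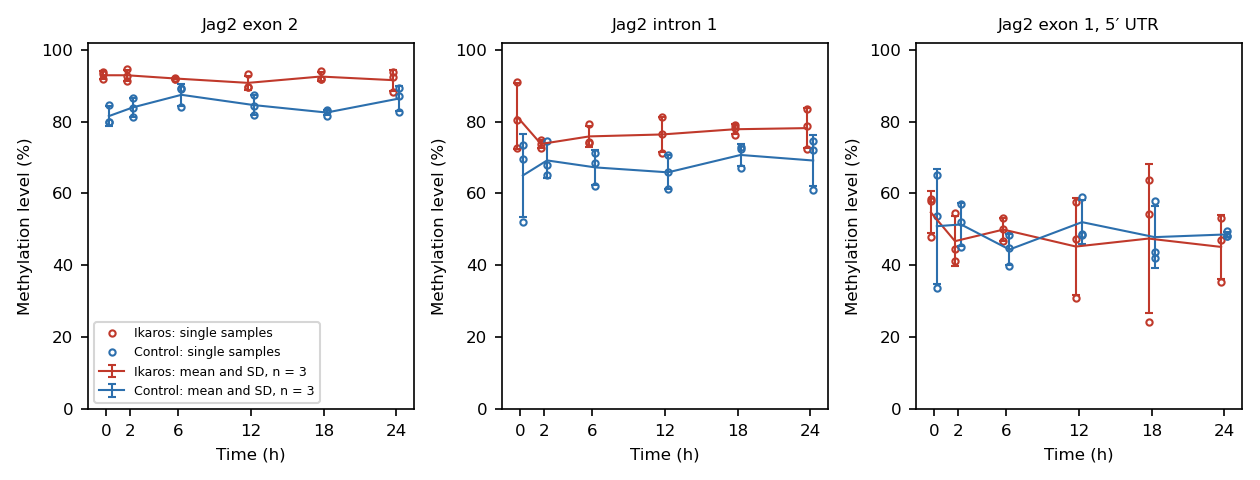
Methylation level (%, vertical axis) of 3 parts of the Jag2 start against time (h, horizontal axis) in the Ikaros (red) and Control (blue) series. Circles are single samples, lines join means and bars are 1 SD of 3 replicates. In exon 2 the Ikaros samples lie between 88.3% and 94.5% and the Control samples between 79.9% and 89.4%, while in the untranslated part of exon 1 the series overlap.

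In Notch3 the called cluster just upstream of the start, chr17:32166868-32166936, was at 90.3%, 95.6% and 100% (lowest, median and highest) in the Ikaros series and 81.4%, 92.6% and 97.8% in the Control series. Most samples overlapped, with 3 Ikaros samples above the highest Control sample. Its means of 95.4% ± 2.7 and 92.2% ± 3.44 gave an M-value difference of 0.95 ± 0.28 (SE, adjusted p = 0.0448), and 9 of its 20 positions were called. The call was lost on the scale of levels (adjusted p = 0.0705), for 2 h to 24 h only (0.135) and in 25 of the 36 fits that left out 1 sample. Leaving out replicate 1, 2 or 3 also lost it (adjusted p = 0.441, 0.0876 and 0.176). None of its positions was called without 1 of the replicates, on levels or for 2 h to 24 h only. Exon 25 of Notch3, chr17:32141304-32141425, which overlaps the annotated gene Gm17276, was at 90%, 92.5% and 95.6% against 87.3%, 90.5% and 95.4%. Its highest Control sample was the 24 h replicate 2 library. Here the M-value difference was 0.41 ± 0.11 (adjusted p = 0.0234), and 12 of 20 positions were called, all higher in the Ikaros series. Without replicate 1 or without replicate 3 the exon 25 cluster lost its call (adjusted p = 0.219 and 0.329), as did all of its positions. The 3 other Notch3 clusters were not called, though 4 positions of the first intron were. With the library covariates none of these Notch3 positions was called.

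Hes1 held the called cluster that was lower in the Ikaros series. It lay at chr16:30066089-30066644 over exon 3 and had complete values at only 15 of 45 positions. The lowest, median and highest level were 0.517%, 1.23% and 4.5% in the Ikaros series and 0.523%, 3.11% and 5.34% in the Control series. The ranges overlapped almost wholly, though 17 of 18 Ikaros samples lay below the Control median. The highest Ikaros and the lowest Control sample were the 24 h replicate 2 libraries, which stood apart. The means were 1.55% ± 1.05 and 2.94% ± 1.33 (M-value difference -0.62 ± 0.18, SE; adjusted p = 0.0364), and the call was lost when positions with empty values were included (adjusted p = 0.364) and in 18 of the 36 fits that left out 1 sample. Its 2 called positions, the adjacent bases 30066158 and 30066159, kept their call with the covariates. However, no position of the cluster was called without replicate 1 or without replicate 3. At 30066159 the level was 3.37% ± 2.34 against 7.61% ± 3.59.

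Smaller stretches of other members were called at single positions. Exon 2 of Jag1 had 8 positions called, with 96.8% ± 1.54 in the Ikaros and 92.8% ± 2.75 in the Control series at 137115535 (adjusted p = 0.00153), while its cluster missed the threshold (adjusted p = 0.159). The flank upstream of Dll1 had 4. At the last position of the clusters downstream of Notch4, 34592800 in the cluster that overlaps Pbx2, the level was 42.3% ± 10.7 against 25.9% ± 11.3 (adjusted p = 0.00441). With the library covariates 5 of the Jag1 positions were called and none of those at Dll1 or downstream of Notch4. No cluster of Notch1, Notch2, Hey1 or Dtx1 was called, and none of their positions.

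The time course gave no call at these genes. For the change over time 0 of the 33 clusters passed in the Ikaros series (smallest limma adjusted p = 0.924; 2 with an unadjusted p under 0.05) and 0 in the Control series (0.991; 1 unadjusted). Over all clusters 0% and 0.012% passed, and 5.22% and 4.83% at an unadjusted p under 0.05. The difference between the time courses was called in 0 of the 33 (smallest adjusted p = 0.965; 0 unadjusted), as in 0% of all clusters (5.12% unadjusted). At single positions 0 of 1699 were called in each of these 3 tests by limma, where 0.0184%, 0.018% and 0.0195% of all positions were. At an unadjusted p under 0.05 there were 79, 63 and 55 of the 1699, for which no share over all positions was taken. Apart from the variable Dll1 cluster, the means of the 6 time points spanned at most 5.98 percentage points in the Ikaros and 6.39 in the Control series.

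**Figure D5:**
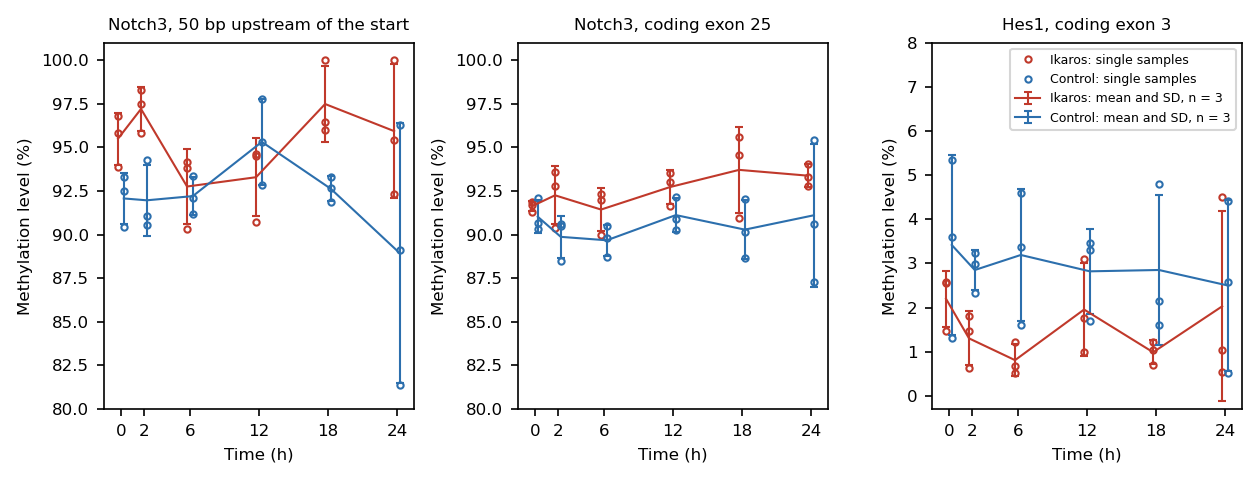
Methylation level (%, vertical axis) of the called clusters of Notch3 and Hes1 against time (h, horizontal axis) in the Ikaros (red) and Control (blue) series; circles are single samples, lines join means and bars are 1 SD of 3 replicates. The vertical axes do not start at 0 for Notch3, and the 18 samples of each series overlap in every panel.

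In the contrast at 0 h, 0 of the 33 clusters were called by limma (smallest adjusted p = 0.236, at the Jag2 start; 2 with an unadjusted p under 0.05), where 0.215% of all clusters were (9.55% unadjusted). In Notch3 exon 25 the means at 0 h were 91.6% ± 0.286 in the Ikaros and 91% ± 0.944 in the Control series, and at 24 h 93.4% ± 0.652 and 91.1% ± 4.09. In the Hes1 cluster they were 2.2% ± 0.639 and 3.42% ± 2.03 at 0 h and 2.03% ± 2.15 and 2.5% ± 1.94 at 24 h. These 24 h means hold the 2 replicate 2 libraries that stood apart, at 4.5% (Ikaros) and 0.524% (Control). Replicates 1 and 3 at 24 h were at 0.54% and 1.04% in the Ikaros series and 2.57% and 4.4% in the Control series. Within each replicate number the 4 called clusters kept the direction of their difference, with M-value differences of 0.79, 0.18 and 0.50 for Jag2 and of -0.80, -0.38 and -0.70 for Hes1 in replicates 1, 2 and 3. They were 0.41, 0.23 and 0.59 for Notch3 exon 25 and 1.26, 0.22 and 1.38 for the Notch3 start, and none was called within 1 number. The 4 clusters were called on these same samples, so the shared direction is no independent check. Without the 3 libraries that stood apart all 4 were called (adjusted p of 0.00429 to 0.0309). The clusters that singled out Control 24 h replicate 2 include these 4, so this too is no independent check.

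The other genes of the pathway were called at about the share of all clusters. Of 56 listed genes, 50 had a cluster, and 6 of their 112 tested clusters were called, 5 higher and 1 lower in the Ikaros series (5.36%). The start of Hey2, a target of the same family as Hey1, was at 85.8% ± 3.76 in the Ikaros and 78.6% ± 3.75 in the Control series (adjusted p = 3.91e-06). Starts of Dtx4, a Deltex ubiquitin ligase (78.9% ± 7.33 against 69.9% ± 5.14), and of Rfng, a fringe enzyme that modifies the receptors (29.8% ± 5 against 22.5% ± 2.41), were also higher, as was a cluster near Dtx3 (80.9% ± 4.77 against 76.7% ± 2.96). The 13 clusters of other ligands, 7 of proteases and 16 of receptor cofactors held no call, groups too small to differ visibly from the 4.84% of all clusters. Of the 80 promoter clusters of these genes, 49 were under 10% and 24 over 90%.

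Across the 36 samples, clusters at Sarm1 (Pearson r = 0.689) and Gm26575 (0.656) were among those whose levels followed the Jag2 start most closely. Both were also higher on average in the Ikaros series, and the points share libraries and batches.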

How the data were processed

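Per the labels and the study's methods, the authors trimmed the reads, aligned them to mm10 (GRCm38) with Bismark 0.10.1, left out the first 4 bases of each read, limited coverage above the 95% quantile and, with BiSeq, kept clusters of at least 20 CpG positions and smoothed the levels with a bandwidth of 80 bp. The deposited files hold, for each of 1116417 positions and 36 samples, the smoothed methylation level as a fraction from 0 to 1 and its M-value, the log2 of methylated over unmethylated fraction with levels limited by the authors to 0.01 and 0.99. Levels under 1% are therefore alike on the M scale. Read counts were not used here, so the depth is unknown. Printed levels are percentages.

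Clusters were rebuilt from the positions and averaged over positions with a value in all samples. M-values were fitted with limma 3.58.1 in R 4.3.3, and the tests were run on simulated data first. The series difference came from a fit of series plus time point over all 36 samples. The 0 h contrast and the time course difference came from a fit of the 12 groups of series and time. Change over time was fitted within the 18 samples of each series. Replicate numbers follow the biological batches in the labels (batch 1, batches 2 and 3, batch 4), which is the pairing used for the replicate block; deviations of same-numbered samples correlated at -0.000326 on average (198 pairs). The 10 genes, the gene lists and the tests were chosen with earlier results of these data known. Full values are given for the cluster nearest the start of each gene and for called clusters, and ranges for the others; other pathway genes are named where a cluster was called, except for results that are not reported here. Alternatives covered scale, empty values, blocks, covariates and left-out samples. Figures were drawn with matplotlib 3.10.9.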

Additional observations from a re-analysis of the deposited data

How the results depend on the processing

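Of the 33 Notch pathway clusters, 4 were called between the series. The number was 3 on the scale of levels, where Jag2 and the Notch3 start were lost and exon 2 of Jag1 was gained (adjusted p = 0.0358). It was 2 for the M-value of the mean level and 2 for 2 h to 24 h only, where Jag2 and the Notch3 start were lost, 2 with positions with empty values included, where Jag2 and Hes1 were lost, 2 on levels with empty values included, and 0 with the coverage measures as covariates. Over all clusters these settings called 906 (levels), 895 (M-value of the mean level), 776 (2 h to 24 h), 761 and 860 (empty values, M-values and levels) and 335 (covariates), against 810. With the replicate block the number was 4, as with batch as a factor, at least 10 complete positions, or a trended and robust variance, and the block changed no call of a cluster. Within replicate number 1, 2 and 3 and within batch 1 it was 0, 0, 0 and 0. Leaving out 1 replicate number or 1 sample gave 0 to 4. The lowest of these came without replicate 3 (0), and the number was 1 without replicate 1 (Dll1, adjusted p = 0.0203), while the calls over all clusters fell from 810 to 368 and 399. Over the 36 samples left out in turn, the Jag2 start and Notch3 exon 25 stayed called each time, Hes1 lost its call in 18 and the Notch3 start in 25; without Control 0 h replicate 1 these 2 were at adjusted p = 0.0567 and 0.0617. No called difference changed sign under any of these settings, all of which share samples with the fit that gave the calls. The 0 h, time and time-difference tests called 0 of the 33 under each setting run. The single positions, the fits within replicate numbers and batch 1, those without 3 libraries, and levels combined with empty values or with the replicate block were added after seeing the data. At single positions, 21 of the cluster upstream of Hes1 were called lower on levels and 16 of Notch2 were called lower without replicate 1, of 5668 and 1727 lower calls over all positions. Flanks of 0 and 10 kb gave 26 and 35 clusters. The depth behind each level is unknown, and smoothing limits how finely a difference can be placed.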
